A study of Rattus norvegicus with 6 samples.

Results

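The miR-29 family was followed in small RNA libraries from the capsular membrane of the rat lens. Its members were chosen by name alone, as every row of the count table called rno-miR-29a, rno-miR-29b or rno-miR-29c, with either arm. The rule found 7 of the 910 names in the table, of which 763 were rat miRNAs. The control group was 3 Sprague Dawley rat pups given saline, and the Na2SeO3 group was 3 pups of the same strain given sodium selenite at 20 μmol/kg. Both groups were injected under the skin of the neck on days 3, 5 and 7. Per the methods the pups were 8 days old when the model was set up, and lenses were taken on day 15 of the experiment. No genetic change was made in either group, although the table names the control columns WT. The selenite was given to the whole animal, so an effect on the lens itself and an effect on the growing animal cannot be told apart. Sex and litter are not given in the sources used here, and each group is therefore described by its treatment only.

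A microRNA gene is transcribed as part of a longer RNA that is cut to a hairpin, and the hairpin is cut again to a short duplex with a 5p and a 3p arm. Usually 1 arm, the guide, is kept by an Argonaute protein, and its bases 2 to 8, the seed, pair with target mRNAs. The miR-29 family is known for restraining collagens, fibronectin, elastin and other matrix genes through its 3p arms, and for being lowered by TGF-β signalling in fibrosis. The lens capsule is itself a collagen-rich basement membrane made by the lens cells.

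The 3 guide arms of the 3p side are shown because their shared seed is what makes them a family. The seed is in capitals.
rno-miR-29a-3p: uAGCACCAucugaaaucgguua
rno-miR-29b-3p: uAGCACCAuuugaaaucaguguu
rno-miR-29c-3p: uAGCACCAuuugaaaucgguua

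All 7 names were found among the RefSeq sequences of assembly GRCr8. Counted from the 5′ end, miR-29c-3p differed from miR-29a-3p by the single substitution C10U, and 21 of 22 positions were identical. miR-29b-3p differed from miR-29a-3p by C10U, G18A, U21G and A22U and was 1 base longer. The end of miR-29b-3p, AGUGUU at positions 18 to 23, is known from human cells as a signal for nuclear import. It was found in 8 of the 693 rat mature names with a sequence (1.15%), and miR-29b-3p was the single miR-29 member among them. No rat miRNA outside the family had the seed AGCACCA in these 693 names.

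The 5p arms are shown because 1 of them, miR-29c-5p, was counted more often than its partner. Positions 2 to 8 are in capitals.
rno-miR-29a-5p: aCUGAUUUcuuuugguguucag
rno-miR-29b-1-5p: uUUCAUAUggugguuuagauuu
rno-miR-29b-5p: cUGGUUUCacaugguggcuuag
rno-miR-29c-5p: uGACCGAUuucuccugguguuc

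No pair of these 5p arms shared a seed. Position by position from the 5′ end, with no shift, they were between 22.7% and 40.9% identical. That comparison misses likeness between arms that start at different bases. With their starts shifted, miR-29c-5p and miR-29a-5p as printed above are alike over most of their length. The same holds for miR-29b-1-5p and miR-29b-5p. No rat mature sequence outside the family came within 3 differences of any member, counted in the same way without a shift. A near copy with a shifted start would thus be missed. How reads were divided between miR-29c-5p and miR-29a-5p was not tested. The 3p arms are alike without any shift. miR-29a-3p and miR-29c-3p can be told apart at 1 base only, and how the counting of the authors divided reads between them was not tested.

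The family has 4 genes at 2 loci in GRCr8. Mir29a lies at chr4:60617955-60618042 and Mir29b1 at chr4:60618334-60618414, both on the minus strand and 291 bases apart, and the nearest protein-coding genes on either side are Klf14 and Mkln1. Mir29b2 at chr13:109098831-109098911 and Mir29c at chr13:109099359-109099446 lie on the plus strand, 447 bases apart, between Cd34 and Cd46 and within the non-coding RNA gene LOC102550527. These positions are those of RefSeq; the build behind the count table is not given in the sources used here. miR-29b-3p has the same sequence at both loci, so its counts cannot be given to either. By contrast miR-29b-5p comes from Mir29b2 and miR-29b-1-5p from Mir29b1.

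RefSeq also lists 3 miRNA genes on the opposite strand of these hairpins, and their mature sequences are shown because each is wholly the complement of a stretch of a 3p arm.
rno-miR-3556a, opposite miR-29a-3p: cgauuucagauggugcua
rno-miR-3587, opposite miR-29b-3p: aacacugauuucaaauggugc
rno-miR-3556b, opposite miR-29c-3p: accgauuucaaauggugcua

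These 3 names were in the count table with 0 counts in each of the 6 libraries. No count of the table was thus given to the strand opposite the Mir29 hairpins under these names, which were looked up after the members' values were seen.

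The summed counts of a library, its depth here, lay between 1806596 and 2829903 in the control group and between 663096 and 968151 in the Na2SeO3 group. A name needed 1.06 to 1.66 CPM (counts scaled to a common library total) in the control libraries and 3.10 to 4.52 CPM in the Na2SeO3 libraries to reach 3 counts, so low members were seen less well after selenite. Lens and surface-epithelium miRNAs, among them miR-184, miR-204 and miR-205, held 279741 to 295894 CPM in the control group and 274071 to 303563 CPM in the Na2SeO3 group, and none of their 11 rows was at 0 throughout. This sum hid unequal changes. miR-184, a lens epithelial miRNA, was down-regulated together with miR-29, from a mean of 81388 to 37222 CPM after TMM scaling (log2 fold change -1.13, edgeR adjusted p = 3.48e-05). miR-205 changed by -0.93 and passed the adjusted p-value (0.0012, edgeR) but not the fold change, and miR-204-5p stood at -0.40 and passed neither, whereas miR-182 and miR-183-5p stood at 0.21 each, not called either. The muscle list (miR-1, miR-133a, miR-133b, miR-206, miR-208a, miR-208b and miR-499) held between 6987 and 8208 CPM in the control libraries. In the Na2SeO3 libraries it held between 14995 and 15370 CPM. The row miR-1b was not part of this list. It went from a mean of 12329 to 14585 CPM after TMM scaling (log2 fold change 0.24), was not called, and overlapped between the groups. Erythroid miRNAs held at most 285 CPM in the control libraries and 418 to 537 CPM in the Na2SeO3 libraries, glial miRNAs 81.4 to 94.0 CPM and 167 to 209 CPM, and neuronal miRNAs 36443 to 36904 CPM and 46844 to 53335 CPM. In these 4 sums, taken in CPM without TMM scaling, the Na2SeO3 libraries lay above the control libraries without overlap. The fold changes and group means given here are after TMM scaling. On that scale miR-9a-5p, the largest neuronal row, overlapped between the groups. In the muscle list, with a median log2 fold change of 0.68 over 6 tested rows, miR-206-3p was up-regulated (1.75), and miR-1-3p (0.69, from a mean of 5430 to 8778 CPM), miR-133a-3p and miR-133b-3p passed the adjusted p-value but not the fold change, while miR-499-5p stood at -0.49 and passed neither. The other sums hid unequal changes as well. The single up-regulated members were miR-486 in the erythroid list and miR-219a-2-3p in the glial list, where miR-338-3p stood at -0.93 (edgeR adjusted p = 0.0519), and 0 of 8 tested rows were called in the neuronal list, where the sum followed miR-9a-5p (0.43) while miR-129-5p changed by -0.44 and the median was -0.08 on the log2 scale. miR-451-5p, the defining erythroid miRNA, changed by 0.06. Leukocyte miRNAs (1002 to 1080 CPM and 873 to 1168 CPM) and miRNAs of mesenchyme and vessels (53080 to 61791 CPM and 56487 to 58948 CPM) overlapped between the groups. In the latter list 0 of 9 tested rows were called, but miR-143-3p (log2 fold change -0.60), miR-145-3p (-0.73) and miR-145-5p (-0.85) passed the adjusted p-value alone, while miR-126a-3p stood at 0.24. Rows at 0 throughout were 4 of 14 in the muscle list (the 5p arms of miR-1, miR-133b, miR-208a and miR-208b), 1 of 5 in the erythroid list (miR-451-3p), and 1 of 10 in the mesenchyme and vessel list (miR-214-5p). The part of these other tissues, or of the cells that hold miR-184, in the miR-29 results was not tested. In such bulk samples, fewer cells of a type and less miRNA per cell cannot be told apart.

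Relative to the other miRNAs counted, all 3 guide arms of the family were lower in the Na2SeO3 group. miR-29a-3p went down 3.26-fold, miR-29b-3p 2.45-fold and miR-29c-3p 2.37-fold, whereas miR-29c-5p, the abundant other arm of the Mir29c hairpin, stood at 64.9% of its control level and did not pass the test. The remaining 3 members, miR-29a-5p, miR-29b-5p and miR-29b-1-5p, had 25 counts or fewer in all libraries together and were not tested. Thus 3 of the 7 members, out of 4 with enough counts, were down-regulated DEmiRNAs by the thresholds of the study (adjusted p-value of 0.05 and absolute log2 fold change of 1). Of all 341 miRNAs tested, 17 were down-regulated DEmiRNAs (4.99%). The median log2 fold change of all 341 was 0.08.

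**Figure D1:**
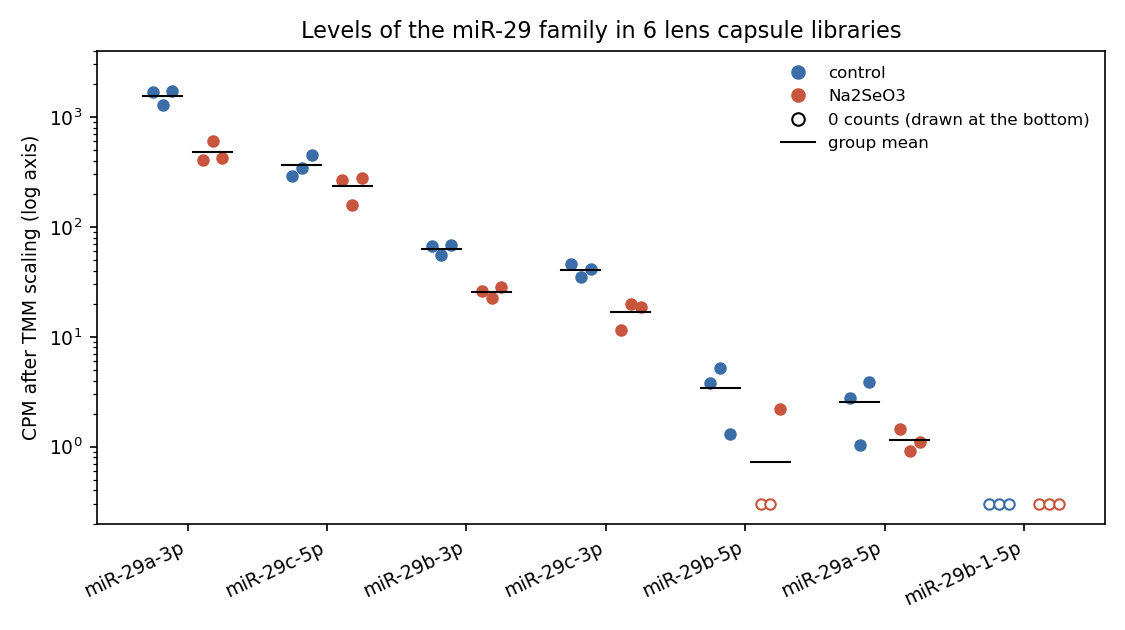
Level of each miR-29 member in CPM after TMM scaling (log axis), 1 point per library, for 3 control and 3 Na2SeO3 libraries, with the group mean as a line and libraries without a count as open points at the bottom. The groups do not overlap for the 3p arms of miR-29a, miR-29b and miR-29c or for miR-29c-5p, and they overlap for the members with few counts.

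miR-29a-3p, the main guide arm of the family, was counted 4887, 2461 and 2668 times in control libraries 1 to 3 and 281, 667 and 383 times in Na2SeO3 libraries 1 to 3. After TMM scaling, which rests on most miRNAs being alike in both groups, these were 1687, 1272 and 1725 CPM against 409, 605 and 421 CPM. Every control library stood at more than the highest Na2SeO3 library, which was library 2. The group means were 1561 ± 251 and 478 ± 110 CPM (SD, n = 3 each). On the log2 scale this was a change of -1.70 with a standard error of 0.20, the fourth largest fall among the 341 miRNAs tested. Its p-value by the quasi-likelihood test of edgeR, Benjamini-Hochberg adjusted over these miRNAs, was 3.84e-05. By count, miR-29a-3p ranked 44th to 49th of all names in the control libraries and 78th to 94th in the Na2SeO3 libraries.

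miR-29b-3p, the arm that both loci can make, was counted 107 and 105 times in control libraries 2 and 3, more often in the deeper control library 1, and 18, 25 and 26 times in the Na2SeO3 libraries. From control library 1 on, these were 66.3, 55.3 and 67.9 CPM against 26.2, 22.7 and 28.6 CPM. The 3 libraries of each group lay close together, and the groups were well apart. Their means, 63.1 ± 6.85 and 25.8 ± 2.97 CPM (SD, n = 3 per group), differed by -1.29 on the log2 scale with a standard error of 0.22 (edgeR, adjusted p = 7.04e-04).

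miR-29c-3p, the guide arm that only Mir29c makes, was the least counted of the 3. It had 67 and 64 counts in control libraries 2 and 3, more in control library 1, and 8, 22 and 17 in the Na2SeO3 libraries. In CPM the control libraries held 45.9, 34.6 and 41.4 and the Na2SeO3 libraries 11.6, 20.0 and 18.7, again without overlap, with Na2SeO3 library 1 lowest. The change was -1.25 on the log2 scale with a standard error of 0.27 (edgeR, adjusted p = 0.0034). Against a fold change of at least 2 rather than any change (edgeR's glmTreat), miR-29a-3p was still called (adjusted p = 0.0144), and miR-29b-3p (adjusted p = 0.382) and miR-29c-3p (adjusted p = 0.618) were not.

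miR-29c-5p, the arm opposite this guide, was counted 833, 662 and 704 times in the control libraries and 185, 173 and 255 times in the Na2SeO3 libraries. In CPM the control libraries held 287, 342 and 455, and the Na2SeO3 libraries held 269, 157 and 280. The groups were separated by a narrow gap, between 280 CPM in Na2SeO3 library 3 and 287 CPM in control library 1. The log2 fold change was -0.62 (95% interval -1.12 to -0.12, adjusted p = 0.0519, edgeR), which failed both thresholds. In 8 of 12 other settings tried with all 6 libraries its adjusted p-value was below 0.05, but its log2 fold change was past -1 only with libraries scaled to the raw reads that the study lists. With single libraries left out the adjusted p-value was above 0.05 in 5 of 6 cases, with a range of 0.0290 to 0.264 over all 6 (edgeR), and the log2 fold change lay between -0.76 and -0.38, nearest to 0 without Na2SeO3 library 2. The control and Na2SeO3 libraries did not overlap, with the Na2SeO3 libraries lower, in all 4 members tested and in 72 (21.1%) of the 341 miRNAs tested.

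**Figure D2:**
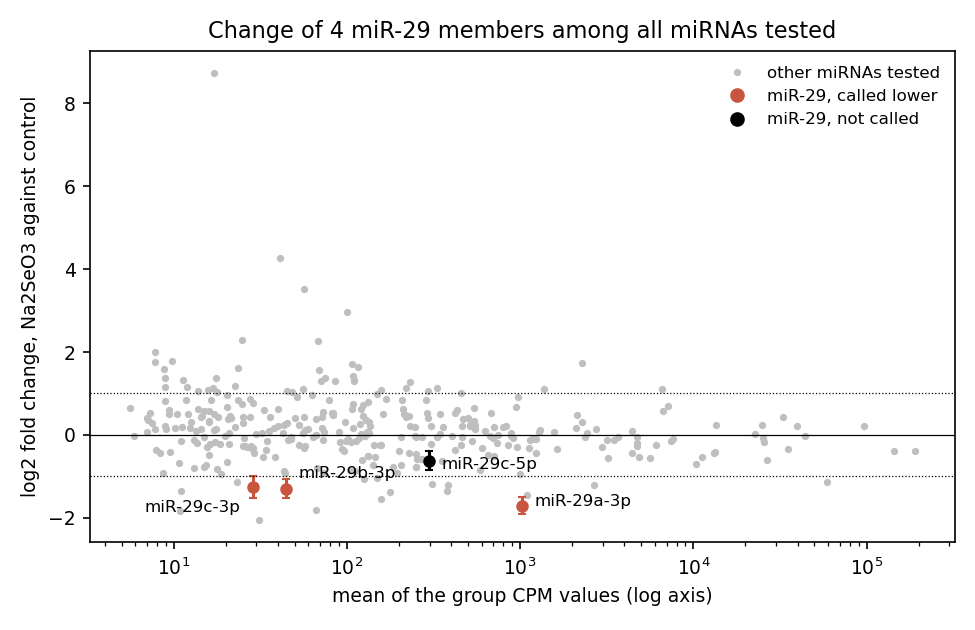
Log2 fold change of the Na2SeO3 group against the control group (vertical axis) by mean CPM (log axis) for the 341 miRNAs tested, with the 4 miR-29 members marked and bars of 1 standard error. miR-29a-3p at -1.70, miR-29b-3p at -1.29 and miR-29c-3p at -1.25 lie below the dotted line at -1, and miR-29c-5p at -0.62 lies above it.

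The 3 low members gave counts too small for a level. miR-29a-5p had 8, 2 and 6 counts in the control libraries and 1 in each Na2SeO3 library. Per total counts this was a ratio of 0.502 between the Na2SeO3 and control groups, with an exact 95% Poisson interval of 0.0937 to 1.75 that covers counting error only. miR-29b-5p, the arm particular to Mir29b2, had 11, 10 and 2 counts in the control libraries and 0, 0 and 2 in the Na2SeO3 libraries, a ratio of 0.233 (interval 0.0266 to 0.941, counting error only). The libraries of the groups overlapped for both (exact permutation test of the CPM values, p = 0.3 and p = 0.2, n = 3 per group), and with no filter on low counts their adjusted p-values were 0.521 and 0.314 (edgeR). miR-29b-1-5p was not counted in any library, which allows up to 1.06 CPM in control library 1, the deepest, and up to 4.52 CPM in Na2SeO3 library 1, the shallowest.

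The whole family made up 0.214%, 0.159% and 0.196% of the counts in control libraries 1 to 3 and 0.0743%, 0.0917% and 0.0779% in Na2SeO3 libraries 1 to 3. The means were 0.190% ± 0.0280 and 0.0813% ± 0.00917 (SD, n = 3 each), 2.34 times apart (p = 0.1 in a two-sided exact permutation test, below which 3 libraries per group cannot go). The 3p arms alone made up 0.156% ± 0.0286 and 0.0562% ± 0.0152 of the counts, 2.78 times apart. The 5p arms stood at 0.0340% ± 0.00484 and 0.0251% ± 0.00624 (SD, n = 3 each), with p = 0.1 by the exact permutation test for either side. The 3p sum was mostly miR-29a-3p and the 5p sum mostly miR-29c-5p, so they describe different hairpins, and the difference between the sums was not tested.

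A share of the counted miRNAs says nothing of the amount of miRNA in a lens. Scaled to the raw reads listed by the study, of which 25.6% to 39.7% were counted on miRNA names in the control libraries and 11.4% to 13.0% in the Na2SeO3 libraries, the median of all miRNAs moved from 0.08 to -1.07 on the log2 scale. On that scale the log2 fold changes of the guide arms of miR-29a, miR-29b and miR-29c and of miR-29c-5p were -2.86, -2.47, -2.43 and -1.75. Relative to the median of all miRNAs they were -1.79, -1.40, -1.36 and -0.68, beside -1.78, -1.37, -1.32 and -0.70 with TMM. A change of scale moves all miRNAs by nearly the same amount, so these distances stay alike by construction.

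Within the family, miR-29a-3p took most of the counts. Its part was 80.6%, 74.4% and 75.2% in the control libraries and 57.0%, 75.1% and 56.0% in the Na2SeO3 libraries. Na2SeO3 library 2 looked like the controls in this respect, and the other two did not. miR-29c-5p was second, with 13.7%, 20.0% and 19.8% in the control libraries and 37.5%, 19.5% and 37.3% in the Na2SeO3 libraries. The means were 76.7% ± 3.38 and 62.7% ± 10.8 for miR-29a-3p (p = 0.2) and 17.9% ± 3.57 and 31.4% ± 10.3 for miR-29c-5p (p = 0.3, exact permutation tests, SD, n = 3 each). With 3 libraries per group the exact permutation test cannot go below p = 0.1, so it could not show a difference at the 0.05 level. miR-29b-3p stayed between 2.82% and 3.80% and miR-29c-3p between 1.62% and 2.49% of the family in all 6 libraries. Counts that only the Mir29b1 and Mir29a locus can give were 76.8% ± 3.40 of the family in the control group and 62.9% ± 10.7 in the Na2SeO3 group, and those of the Mir29b2 and Mir29c locus were 20.0% ± 3.42 and 33.7% ± 10.2 (SD, n = 3 each).

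**Figure D3:**
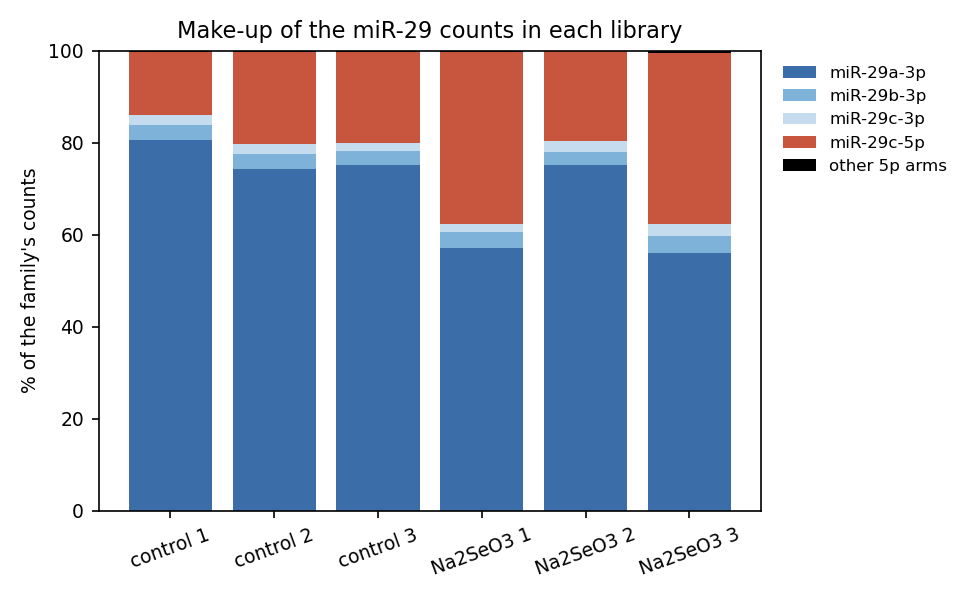
Make-up of the miR-29 counts in each of the 6 libraries, as a percentage of the family's counts (stacked bars that sum to 100%). miR-29c-5p takes 37.5% and 37.3% in Na2SeO3 libraries 1 and 3, and between 13.7% and 20.0% in Na2SeO3 library 2 and the control libraries.

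Ratios of 2 members in 1 library do not depend on the scaling. miR-29a-3p was counted 36.7, 36.7 and 41.7 times as often as miR-29c-3p in the control libraries and 35.1, 30.3 and 22.5 times as often in the Na2SeO3 libraries. The groups did not overlap, and the mean log2 ratio differed by -0.41 (exact permutation test, p = 0.1, adjusted over the 3 ratios 0.3). The ratio of miR-29a-3p to miR-29b-3p was 25.5, 23.0 and 25.4 in the control libraries and 15.6, 26.7 and 14.7 in the Na2SeO3 libraries, with overlap and a difference of -0.43 (exact permutation test, p = 0.4, adjusted 0.6). The ratio of miR-29b-3p to miR-29c-3p differed by 0.02 (exact permutation test, p = 1). With 3 libraries a group these tests cannot reach a p-value of 0.05, and no difference in the size of the fall among the 3 guide arms was shown.

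The 2 arms of a hairpin gave opposite pictures in miR-29a and miR-29c. In miR-29a the 3p arm was 99.6% to 99.9% of both arms in each of the 6 libraries. In miR-29b it was 91.5% to 98.1% in the control libraries and 92.9% to 100% in the Na2SeO3 libraries, where 18 to 28 counts stood behind each value. In miR-29c the 3p arm, the guide by the family's seed, was the minor one, at 13.8%, 9.19% and 8.33% in the control libraries and 4.15%, 11.3% and 6.25% in the Na2SeO3 libraries. The 95% Wilson intervals, which cover counting error only, ran from 11.7% to 16.1% in control library 1 and from 2.12% to 7.96% in Na2SeO3 library 1. miR-29c-5p was thus counted 6.26 to 11.0 times as often as miR-29c-3p in the control libraries and 7.86 to 23.1 times as often in the Na2SeO3 libraries. The ligation of adapters in small RNA libraries is known to favour some sequences over others, so a ratio of 2 different arms is a ratio of counts and not of molecules; the same ratio can still be compared between groups.

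**Figure D4:**
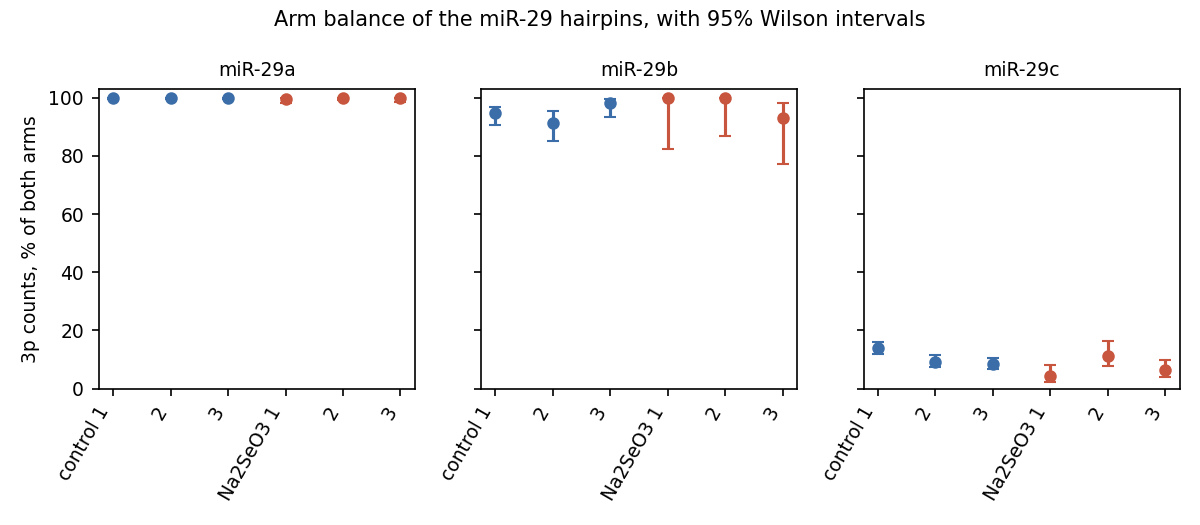
Share of the 3p arm in the counts of both arms of miR-29a, miR-29b and miR-29c in each library (percent), with 95% Wilson intervals for counting error. miR-29a lies between 99.6% and 99.9%, and miR-29c between 4.15% and 13.8%.

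Whether the balance of arms moved with selenite was tested over 97 hairpins with at least 30 counts of each arm, in a model with a term for each library (edgeR's quasi-likelihood test). For miR-29c the log2 ratio of the 3p to the 5p arm changed by -0.59 (95% interval -1.30 to 0.11, edgeR adjusted p = 0.402), so that a shift toward the 5p arm of this size was within the error. The overlap of the libraries shows the same: Na2SeO3 library 2, at 11.3% for the 3p arm, lay inside the range of the controls. Without that library the change was -1.04 (adjusted p = 0.123, edgeR), and 7 of 91 hairpins were called, miR-29c not among them. It was -0.32 without Na2SeO3 library 1 and -0.33 without control library 1. With all libraries, none of the 97 hairpins passed an adjusted p-value of 0.05 (0%), and 13 had an unadjusted p-value below 0.05 (edgeR). Limma on the log2 ratios likewise called 0, with 12 below 0.05 unadjusted. After thinning to the smallest library 1 of 71 hairpins was called, and miR-29c was not (edgeR, adjusted p = 0.366). In the control group 26 of the 97 hairpins had a lower 3p share than miR-29c, and 52 had the 5p arm ahead. The 5p counts of miR-29a and miR-29b were below the minimum of this model. Their log2 ratios, with 0.5 added to each count, overlapped between the groups (exact permutation test, p = 0.2 for miR-29a and p = 0.7 for miR-29b).

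**Figure D5:**
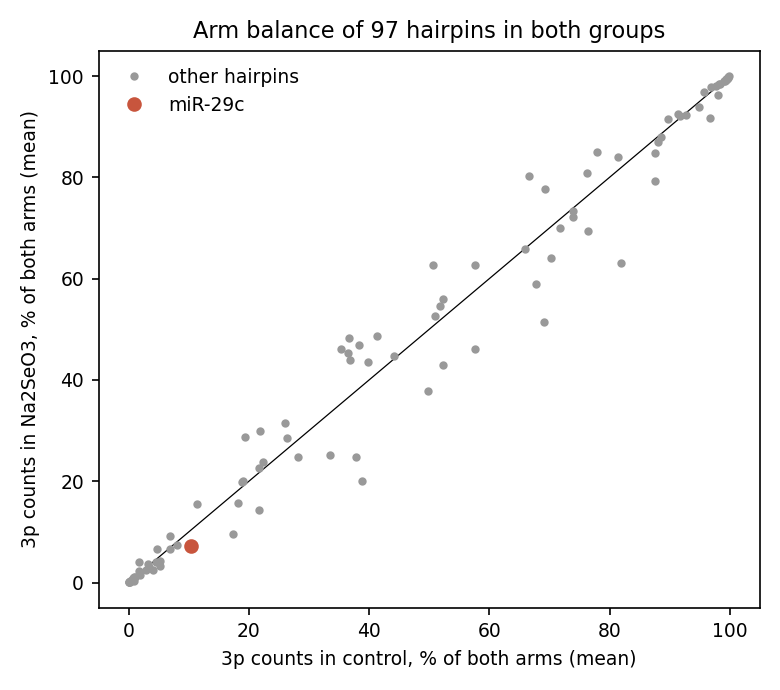
Mean share of the 3p arm in the counts of both arms (percent) in the control group (horizontal axis) and the Na2SeO3 group (vertical axis) for 97 hairpins, 1 point each, with equal shares on the line. miR-29c lies at 10.4% and 7.23%, near the line and among the hairpins with a dominant 5p arm.

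Across the 6 libraries the log2 CPM of miR-29a-3p followed that of miR-29c-3p (Pearson's r = 0.96) and miR-29b-3p (r = 0.94) more closely than that of miR-29c-5p (r = 0.57). The 6 points share their grouping, so these values describe the pattern only. Outside the family, the rat miRNAs most like miR-29a-3p by this measure were miR-148a-5p (r = 0.99), miR-210-3p (r = 0.98), miR-205 (r = 0.97), miR-26a-5p (r = 0.97) and miR-200a-3p (r = 0.97). In the same order their log2 fold changes were -0.92, -1.03, -0.93, -0.33 and -1.19. Of these, miR-210-3p and miR-200a-3p were called lower, and miR-148a-5p, miR-205 and miR-26a-5p were not. Each change was smaller in size than that of miR-29a-3p, a difference that was not tested. miR-210-3p is known as a miRNA induced by low oxygen, and miR-205 as a miRNA of surface epithelia.

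Beside miR-29, other miRNAs are known to restrain matrix genes or TGF-β responses, among them the miR-200, miR-30, miR-26, miR-101 and miR-133 families. This list, and the fibrosis list below, were chosen with earlier results of these data known. Their counts are thus a description and no test. Of 32 rows of such miRNAs 24 were tested, and 3 were down-regulated DEmiRNAs (against 4.99% of all miRNAs tested), all from the cluster of miR-200a and miR-200b, which keep epithelial cells epithelial. miR-200b-3p changed by -1.45 on the log2 scale (edgeR, adjusted p = 3.48e-05), miR-200a-3p by -1.19 (edgeR, adjusted p = 1.53e-04) and miR-200a-5p by -1.06. No row of the list was an up-regulated DEmiRNA, against 39 of all 341 miRNAs tested (11.4%), and 21 did not pass. Among the 21, miR-133b-3p (log2 fold change 0.98, edgeR adjusted p = 0.0071) and miR-133a-3p (0.68, edgeR adjusted p = 0.0082) passed the adjusted p-value but not the fold change. By adjusted p-value alone 10 of 24 rows were lower and 2 higher, against 13.8% and 20.8% of all miRNAs tested. 1 row was called higher without control library 1 (34 of all 341 miRNAs), without Na2SeO3 library 1 (43 of 386) and after thinning to the smallest library (33 of 295). 2 rows were called lower after thinning (14 of 295 miRNAs), without control library 3 (12 of 340) and without Na2SeO3 library 2 (20 of 375). The median log2 fold change of the 24 tested rows was -0.31, beside 0.08 for all miRNAs tested. With library size only as the scale 1 row was called lower and 1 higher (2.93% and 15.5% of all), with raw reads 20 were called lower (51.6% of all), and with glmTreat 0 (0.88% of all). Of 16 rows of miRNAs known to rise in fibrosis or promote it, such as miR-21, miR-199a and miR-214, 9 were tested, and 1 was a DEmiRNA, miR-382-5p, which rose (log2 fold change 1.27, adjusted p = 0.0017, edgeR). The median of this list was -0.02, and the 8 other rows did not pass. A count of 1 in 9 is near the 11.4% of all miRNAs that were called higher. It was 0 without Na2SeO3 library 1, where 43 of 386 miRNAs were called higher. With glmTreat, which called 1.76% of all miRNAs higher, it was also 0. By adjusted p-value alone 1 row was lower, miR-21-5p (log2 fold change -0.52, edgeR adjusted p = 0.0137), and 2 were higher, the arms of miR-382. Scaled to raw reads, miR-382-5p was no longer called and 7 rows of this list were called lower, with 1.76% of all miRNAs called higher and 51.6% lower.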

How the data were processed

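Small RNA libraries from 6 rat lens capsules, 3 per group, were analysed. Per the methods, adapters and poor bases were removed with Cutadapt and Fqtrim, quality was inspected with FastQC, and miRDeep and HISAT2 served to place reads on a rat genome taken from Ensembl. The authors deposited a table of raw counts per miRNA name, neither normalized nor pooled. The build and versions are not given in the sources used here. Columns were matched to samples by the sample titles. The 3 samples of a group came from 3 rats per the design text; whether they shared a litter is not given.

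Names were kept with filterByExpr (minimum count 10), scaled with TMM and compared with edgeR's quasi-likelihood test, group being the single factor, with Benjamini-Hochberg adjustment over 341 names. Standard errors were derived from each fold change and the F value of its test. Arm balance was tested with edgeR on both arms of each hairpin, with terms for library, arm and arm by group. Shares and ratios, 1 value per library, went into two-sided exact permutation tests. The scripts were tested on simulated data. No 2 libraries agreed within sampling noise (chi-square per degree of freedom at least 28.0). The tools were edgeR 4.0.16, DESeq2 1.42.0 and limma 3.58.1, run in R 4.3.3.

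The members, lists and tests were chosen with earlier results of these data known. Named miRNAs were all members and the 5 rat miRNAs most correlated with miR-29a-3p. Up to 2 called names with the largest change per companion list and the neighbours of the Mir29 genes were also named. miR-200a-5p, miR-133a-3p, miR-133b-3p, miR-21-5p, miR-1b and the marker miRNAs given with a fold change were named after their values were seen. Hairpins with the largest arm change were to be named among those called, and none was called in the main fit. Alternatives were other scalings, filters, tests, thresholds, the block and leaving out libraries. mRNA and qRT-PCR data are not analysed here.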

Additional observations from a re-analysis of the deposited data

How the results depend on the processing

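Of the 12 other settings tried with all 6 libraries, 11 gave between 2 and 4 members called lower. Those 11 called from 17 of 725 to 176 of 341 of all miRNAs lower. With glmTreat 1 member was called (miR-29a-3p), with 0.88% of all miRNAs called lower. With at least 10 counts in every library miR-29c-3p could not be tested. Scaling to raw reads called 4, with 51.6% of all miRNAs called lower. Leaving out each library in turn gave 3 each time, with from 12 of 340 to 20 of 375 of all miRNAs called lower. miR-29c-3p reached its highest adjusted p, 0.0401, without control library 1 (edgeR). The log2 fold changes kept their sign in each setting for the 4 members tested. The replicate block changed no call; miR-29c-5p then had an adjusted p of 0.0439 (edgeR) and a log2 fold change of -0.64, under the fold change threshold. Between libraries of the same number, deviations from the group means correlated at -0.17, -0.18 and -0.26 across 341 miRNAs. The study calls model and control animals paired without naming the pairs, and these values gave no sign that the numbers mark them. The arm change of miR-29c lay between -0.63 and -0.56 over 4 other settings and between -1.04 and -0.32 with each library left out. The difference in the family's share of counts, -0.109 percentage points, was -0.0492 per raw read, where all shares are smaller and the control group stood 5.99 times above the Na2SeO3 group rather than 2.34 times. It lay between -0.124 and -0.0966 with each library left out. The same step, added after seeing the data, gave -0.55 to -0.23 for the log2 ratio of miR-29a-3p to miR-29c-3p, -0.70 to -0.27 for miR-29a-3p to miR-29b-3p and -0.24 to 0.25 for miR-29b-3p to miR-29c-3p. Thinning the libraries to the smallest total kept the 3 calls, with 14 of 295 miRNAs called lower. Depth limits miR-29a-5p, miR-29b-5p and miR-29b-1-5p, and miR-29c-3p with 8 to 22 counts in the Na2SeO3 libraries.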
